A study of Mus musculus with 20 samples.

Results

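The response of the plantaris, a fast ankle extensor muscle of the hindlimb, to 14 days of mechanical overload (MOV) was measured by RNA sequencing in old mice that received vehicle. The 10 vehicle mice, 5 after MOV and 5 after sham surgery, were taken from a series of 20 mice by their labels, and a gene was tested when at least 5 of the 10 mice had at least 10 counts. Of 22660 genes in the table, 14601 passed and 8059 were not tested. All were male C57BL/6J mice by the study's methods and 2 years old by the labels, and the labels name no engineered allele. In MOV mice part of the soleus and gastrocnemius was removed on both sides, which leaves the plantaris to carry their load, whereas sham mice had only the skin opened. The vehicle was dilute polyethylene glycol (PEG), given by gavage on days 7 and 10. The series text places the second gavage of sham mice on day 14, so the treatment days of both groups may not be equal. Overload and the removal of the neighbouring muscles came together in every MOV mouse and cannot be told apart. The other 10 mice, used in 1 comparison at the end, were of the same kind and had received the senolytics dasatinib (5 mg/kg) and quercetin (50 mg/kg), together D+Q, in place of vehicle, with 5 mice after MOV and 5 after sham surgery.

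An overloaded muscle adds protein and connective tissue over days to weeks. Load is sensed at the Z-disc, at the membrane and in the surrounding matrix, satellite cells divide and fuse into fibres, fibroblasts lay down collagen, and macrophages enter. Fast fibres, which burn glycogen and pump calcium quickly, take on slower contractile isoforms. In old muscle this growth is known to be smaller than in young muscle. No young mice were measured here.

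Libraries held from 17887532 to 26234518 counts, and no pair of libraries within a group was as close as counting noise alone would make it (lowest ratio of observed to counting variance 8.52). The 10 largest genes took 23.5% ± 0.379 of all counts in sham mice and 17.6% ± 1.10 in MOV mice (SD, n = 5 each, with exact permutation p = 0.00794, two-sided and the smallest that 5 mice against 5 can give). Counts were therefore scaled with TMM factors, which lay between 0.843 and 0.894 in sham and between 1.07 and 1.23 in MOV mice. With these factors the median log2 fold change of all tested genes was -0.015, and with total counts alone it was 0.36. Levels are given as CPM, counts relative to the scaled library total and set to a common scale, and are listed for mice 1 to 5 of each group in the order of their labels, and log2 fold changes are MOV over sham from edgeR's quasi-likelihood test. The first principal component took 74.8% of the variance and separated both groups. As a check of the tissue label, the muscle fibre markers Ckm, Acta1, Ttn, Neb, Actn2, Mb, Des and Ryr1 summed to between 76809 and 80995 CPM in sham mice and between 51727 and 73955 CPM in MOV mice.

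MOV changed most of the measured transcriptome, and its large changes were mostly rises. At an adjusted p under 0.05, 8831 genes differed (60.5% of those tested), 4482 of them higher (30.7%) and 4349 lower (29.8%) in MOV muscle. With total counts in place of TMM factors the same test gave 7683 higher and 1453 lower genes, so that 84.1% of the calls were rises instead of 50.8%. At 2-fold or more there were 2593 higher genes (17.8%) and 504 lower genes (3.45%). At 8-fold or more 399 genes were higher and 2 were lower. In 6758 genes (46.3%) every MOV mouse lay above, or every MOV mouse below, all sham mice.

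**Figure D1:**
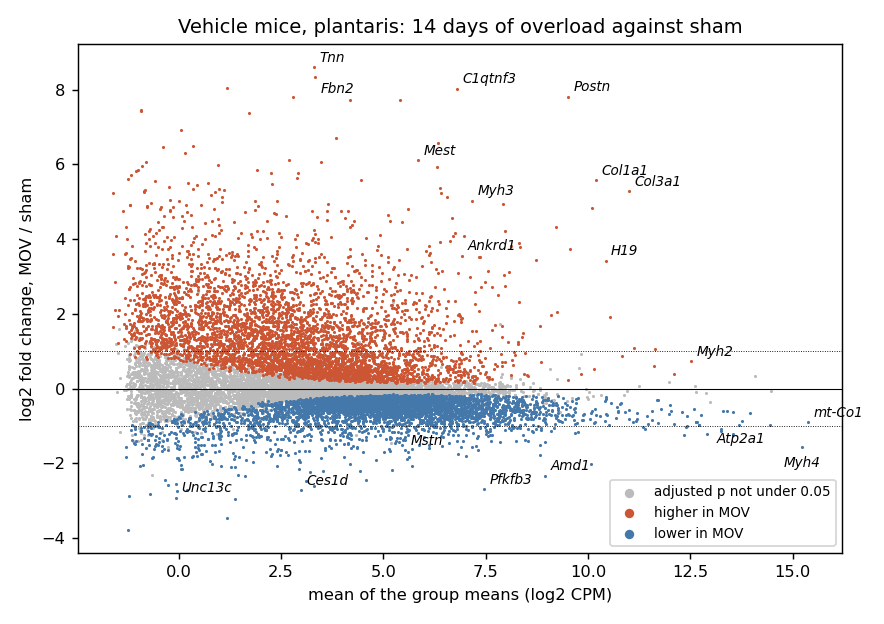
Log2 fold change (MOV over sham, vertical axis) against the log2 of the mean CPM of both groups (horizontal axis) for the 14601 tested genes of the 10 vehicle mice, with genes at an adjusted p under 0.05 coloured by direction and dotted lines at 2-fold. Matrix genes such as Tnn, Fbn2 and Postn lie near the top at log2 fold changes of 8.60, 8.35 and 7.81, whereas the most abundant transcripts, such as Myh4 (-1.56) and mt-Co1 (-0.89), lie below 0.

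The 6 steepest rises, among genes whose groups did not overlap and whose mean reached 1 CPM, were those of matrix proteins, a secreted protein and enzymes of hyaluronan and collagen. Tnn (tenascin N, chromosome 1, 159912599 to 159981150 of GRCm39), a matricellular protein of bone and tendon, had 0, 0, 0, 0.172 and 0.0579 CPM in sham mice and 20.4, 15.5, 16.04, 14.5 and 31.7 CPM in MOV mice. It was practically undetected without overload, and against a floor of 3 counts per library it was at least 117-fold higher with it. Fbn2, the fibrillin of developing elastic fibres, had 0.0452, 0.113, 0.0635, 0.0573 and 0 CPM in sham and 25.4, 11.3, 25.9, 18.8 and 18.9 CPM in MOV mice, at least 119-fold higher. Cemip, a protein that breaks down hyaluronan, went from at most 0.0579 CPM in sham mice to 5.62, 2.26, 5.19, 4.83 and 4.65 CPM, at least 26.8-fold higher. C1qtnf3, a secreted C1q and TNF related protein, had 0.543, 0.849, 0.825, 0.916 and 1.16 CPM in sham and 259, 143, 231, 278 and 199 CPM in MOV mice, a 261-fold rise (log2 fold change 8.03, SE 0.245, adjusted p = 9.24e-10). The other two were Postn and P4ha3, a subunit of the enzyme that hydroxylates collagen prolines, which had at most 0.232 CPM in sham mice and 13.8, 9.599, 14.3, 14.3 and 16.7 CPM in MOV mice.

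Falls were shallower. Among genes whose groups did not overlap the steepest were Unc13c, Map3k21, B3gat1, Pla2g5, Ces1d and Pfkfb3. The first 4 of these were low genes, with 3 CPM or less in every mouse. Pfkfb3, which makes the activator of phosphofructokinase and so speeds glycolysis, had 273, 135, 289, 466 and 362 CPM in sham mice and 57.03, 32.96, 48.9, 69.6 and 28.5 CPM in MOV mice, 6.43-fold lower (log2 fold change -2.68, SE 0.374, adjusted p = 0.000215). Sham mouse 2, the lowest of its group, was still above every MOV mouse. Ces1d, a carboxylesterase of lipid metabolism, went from 19.5, 8.78, 12.6, 11.9 and 15.99 CPM to 2.67, 1.23, 2.81, 2.701 and 1.01 CPM (6.57-fold lower, adjusted p = 1.01e-05). By absolute amount the largest losses among genes that passed the test were Myh4, mt-Co1, Atp2a1, mt-Nd1 and mt-Nd4, and the largest gains were Col3a1, Myh2, H19, Fhl1 and Col1a1.

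Contractile transcripts moved away from the fastest isoform. Myh4, the myosin heavy chain of type 2b fibres (chromosome 11, 67128336 to 67151274), had 65123, 49453, 56501, 57854 and 59090.0 CPM in sham mice and 21098, 17121, 19339, 18840.2 and 21463 CPM in MOV mice. Every MOV mouse had less than the lowest sham mouse, 2.94-fold less on average (log2 fold change -1.56, SE 0.101, adjusted p = 1.59e-08). Myh2, the chain of type 2a fibres, rose from 4407 ± 597 to 7359 ± 1214 CPM (SD, n = 5 each; log2 fold change 0.74). Myh1, the chain of type 2x fibres, had 15415 ± 2937 and 19438 ± 7108 CPM and did not pass the test (log2 fold change 0.33, adjusted p = 0.223). It did with total counts.

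Shares of the myosin heavy chains within a mouse do not depend on the scaling between mice. They were computed per transcript length over Myh1, Myh2, Myh3, Myh4, Myh7 and Myh8. Myh4 made up 80.1%, 72.4%, 75.9%, 80.7% and 81.9% in sham mice and 51.1%, 34.8%, 48.3%, 55.3% and 47.6% in MOV mice, so that MOV mouse 2 had moved furthest. Its mean share fell from 78.2% ± 3.95 to 47.4% ± 7.67 (SD, n = 5 each; adjusted p = 0.00952 over the 6 chains in a two-sided exact permutation test). The share of Myh1 rose from 16.3% ± 3.64 to 35.03% ± 8.14 and that of Myh2 from 5.34% ± 0.543 to 15.6% ± 1.15, both at the same exact permutation p. Myh1 itself did not pass the test across genes. The 6 shares of a mouse add up to its whole myosin pool, so a lower share of Myh4 means a higher summed share of the other chains. The larger share of Myh1 therefore does not show that Myh1 rose. The share of Myh7, the slow chain, was 0.140% ± 0.182 in sham and 0.867% ± 0.604 in MOV mice (exact permutation test, adjusted p = 0.0238), and that p rose above 0.05 when sham mouse 1, 2, 4 or 5 was left out. The embryonic chain Myh3 went from 0.0115% ± 0.00326 to 0.698% ± 0.467 and the perinatal chain Myh8 from 0.0208% ± 0.00446 to 0.347% ± 0.140, both at an adjusted exact permutation p of 0.00952. The annotated exons of Myh4 and Myh1 overlap the antisense gene Myhas and those of Myh7 overlap Mhrt, and whether counting used strand is not given in the sources used here.

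**Figure D2:**
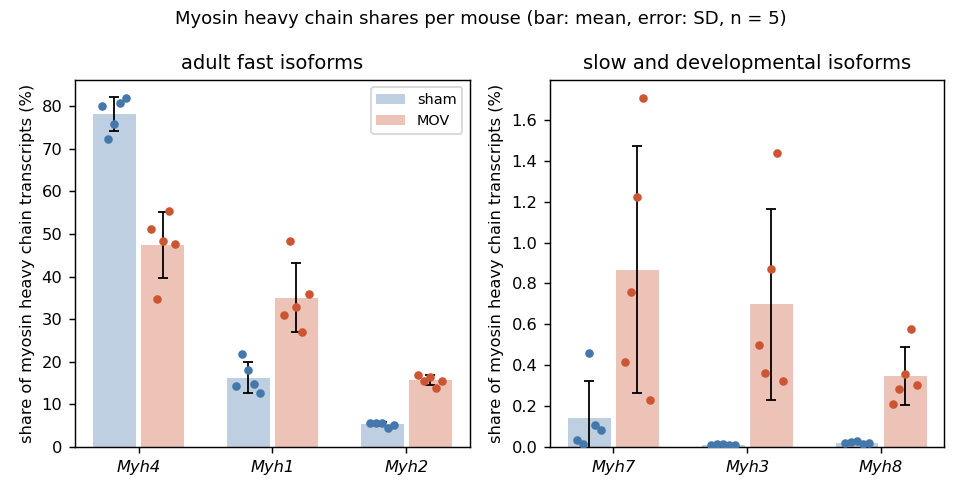
Share of each myosin heavy chain in the length-scaled counts of 6 chains (vertical axis, %) in sham and MOV mice, with points for single mice, bars for means and error bars for SD (n = 5). The 5 MOV mice lie below all sham mice for Myh4 (34.8% to 55.3% against 72.4% to 81.9%) and above them for Myh1, Myh2, Myh3 and Myh8, while for Myh7 sham mouse 3 (0.459%) lies among the MOV mice.

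Of 14 fast fibre genes, all tested, 11 fell and 0 rose (median log2 fold change -0.79), and with total counts 10 fell and 3 rose. Atp2a1, the fast calcium pump of the sarcoplasmic reticulum, went from 29892 ± 1559 to 15221 ± 1748 CPM, and Pvalb, the calcium buffer parvalbumin, from 7352 ± 1341 to 3666 ± 439 CPM (SD, n = 5 each). Tnni2, fast troponin I, had 8861, 7959, 8314, 8703 and 8624 CPM in sham mice and 4788, 4800.0, 4648, 4069.9 and 4752 CPM in MOV mice. All 3 fell with groups that did not overlap (log2 fold changes -0.97, -1.004 and -0.88). Of all tested genes 22.3% were lower with groups that did not overlap.

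Of 12 slow fibre genes, all tested, 8 rose and 1 fell, with a median log2 fold change of 1.71. Sham mouse 3 stood apart here. Tnni1, slow troponin I, had 4.02, 2.095, 34.9, 7.905 and 7.705 CPM in sham mice and 68.04, 94.5, 96.4, 131 and 64.6 CPM in MOV mice, with a log2 fold change of 3.03 (SE 0.687, adjusted p = 0.00462). Myh7 had 29.7, 9.23, 352, 78.99 and 61.7 CPM in sham and 177, 384, 505, 599.7 and 105 CPM in MOV mice and did not pass the test (log2 fold change 1.74, adjusted p = 0.144). Without sham mouse 3 its log2 fold change was 2.98 and it passed, and 11 slow fibre genes rose and 0 fell. The member that fell with all mice was Myl3, a slow and ventricular light chain, at 69.8 ± 21.01 CPM in sham and 44.8 ± 11.1 CPM in MOV mice (adjusted p = 0.0365), and this call was lost without sham mouse 3 and in 6 of the other 9 leave-one-out fits. Slow to fast ratios within each mouse all rose. The ratio Tnni1/Tnni2 was 22.9-fold, Tnnt1/Tnnt3 11.7-fold, Tnnc1/Tnnc2 12.0-fold, Atp2a2/Atp2a1 6.83-fold and Casq2/Casq1 5.49-fold higher in MOV mice (two-sided exact permutation tests, adjusted p = 0.00794 for each).

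Genes of developing muscle were raised. All 11 listed genes were tested and all 11 rose at 2-fold or more with groups that did not overlap, with a median log2 fold change of 3.73. Of all tested genes 17.8% rose at 2-fold or more, and 24.0% were higher with groups that did not overlap. Myh3, the embryonic myosin heavy chain (chromosome 11, 66969126 to 66993117), had 6.74, 8.38, 12.6, 6.82 and 8.17 CPM in sham mice and 209.7, 181, 354, 499 and 147 CPM in MOV mice, 32.8-fold higher (log2 fold change 5.03, SE 0.422, adjusted p = 7.65e-06). Even the lowest MOV mouse had more than 10 times the level of the highest sham mouse. Actc1, the cardiac actin that fetal skeletal muscle also uses, went from 4.97, 4.304, 7.37, 11.3 and 18.8 CPM to 75.9, 94.7, 134, 245 and 104 CPM (log2 fold change 3.81). H19, an imprinted noncoding RNA (chromosome 7, 142129262 to 142133957), had 161, 282, 237, 248 and 247 CPM in sham and 3013, 3238, 2213, 2026 and 2175 CPM in MOV mice, 10.8-fold higher. Mest, an imprinted gene of growing mesoderm, rose 69.6-fold, from 1.63, 1.42, 1.14, 1.604 and 2.32 to 113, 80.8, 135, 149.6 and 89.2 CPM. Chrng, the fetal gamma subunit of the acetylcholine receptor, rose by a log2 fold change of 4.45 from at most 0.543 CPM.

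Sensors of stretch and Z-disc proteins mostly rose, with exceptions. Of 16 listed genes, all tested, 11 rose and 1 fell (median log2 fold change 1.08). Their summed level overlapped between groups, at 14431 to 17111 CPM in sham mice and 16065 to 38626 CPM in MOV mice. Ankrd1, a stretch-responsive partner of titin (chromosome 19, 36089352 to 36097506), had 20.7, 15.3, 28.8, 15.2 and 14.7 CPM in sham mice and 150.2, 222, 147, 139.6 and 459 CPM in MOV mice, 11.8-fold higher (log2 fold change 3.56, SE 0.424, adjusted p = 8.62e-05). MOV mouse 5 was far above the other MOV mice. Csrp3, muscle LIM protein, went from 56.5, 71.1, 72.4, 62.3 and 94.3 CPM to 438, 835, 730.0, 543 and 1365 CPM, again with mouse 5 highest (10.97-fold). Cryab, a small heat shock protein that protects desmin and whose exons overlap Hspb2, had 537, 834, 695, 501 and 555 CPM in sham and 799.5, 1327, 684, 707 and 2469 CPM in MOV mice and did not pass the test (log2 fold change 0.94, adjusted p = 0.0579). It passed with total counts, with a minimum of 50 counts, with all 20 mice in one fit, and when MOV mouse 1, 3 or 4 was left out. Fhl1, a LIM protein linked to fibre growth, rose from 2050.5 ± 309 to 4284 ± 1204 CPM (SD, n = 5 each). The gene that fell was Ankrd23, a relative of Ankrd1, at log2 fold change -0.80.

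Most genes of the YAP and TEAD pathway, which turns tension into transcription, rose. Of 14 genes, all tested, 9 rose and 2 fell (median log2 fold change 0.84). The targets Ccn2 and Ccn1 rose by log2 fold changes of 2.56 and 2.32, and Ccn2 was spread widely over MOV mice (58.8, 27.9, 107, 206 and 74.96 CPM, against 15.5, 10.8, 16.8, 17.99 and 19.5 CPM in sham mice). The stretch-gated channel Piezo1 and the coactivator Wwtr1 rose by 1.37 and 0.96 on the log2 scale. The kinase Lats1, which holds YAP in the cytoplasm, had a log2 fold change of -0.26 with TMM factors and 0.12 with total counts. The factor Tead1 fell from 339.5 ± 16.6 to 224 ± 22.2 CPM (SD, n = 5 each; log2 fold change -0.60).

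Most collagen chains rose with overload. Of 44 collagen chain genes 35 were tested, and 28 of these rose and 3 fell (median log2 fold change 2.65, against -0.015 over all genes). A gene that is present in 1 group alone passes the count filter through that group, so the tested members are not all members. Col1a1, a chain of type I collagen, the main fibre of tendon and scar (chromosome 11, 94827050 to 94843868), had 42.6, 38.4, 40.4, 62.7 and 54.5 CPM in sham mice and 2358, 1480.2, 2407, 2685 and 2499.8 CPM in MOV mice. Its rise was 47.9-fold (log2 fold change 5.58, SE 0.207, adjusted p = 1.38e-09), with MOV mouse 2 lowest of the MOV mice. Col3a1, the chain of type III collagen of young and pliable matrix, went from 93.4, 84.6, 84.1, 132 and 121 CPM to 3691, 2443, 4324, 5331 and 4254 CPM (38.9-fold, log2 fold change 5.28, adjusted p = 9.48e-09). Col12a1, which decorates type I fibrils, rose from at most 3.799 CPM in sham mice to 166, 102, 178, 173 and 163 CPM (log2 fold change 5.92). All collagen chains together took 0.0642% ± 0.00814 of the counts in sham mice and 1.36% ± 0.362 in MOV mice (SD, n = 5 each; adjusted p = 0.00992 over 5 shares in an exact permutation test). The 3 chains that fell were Col9a1 and Col11a2, chains known from cartilage, and Col4a3, a basement membrane chain. The call of Col4a3 (log2 fold change -0.86, adjusted p = 0.0253) was lost with total counts, with the replicate block and without MOV mouse 1, MOV mouse 5 or sham mouse 1. Col9a1 had 12.9, 9.17, 6.92, 7.85 and 6.08 CPM in sham and 2.43, 1.33, 3.09, 1.87 and 1.59 CPM in MOV mice (log2 fold change -2.06).

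Enzymes that fold, trim and crosslink collagen rose beside it. Of 24 listed, all tested, 22 rose and 0 fell (median log2 fold change 2.42). Lox, lysyl oxidase, which starts the crosslinks, had 3.98, 3.398, 4.51, 5.61 and 4.46 CPM in sham mice and 178, 97.8, 163, 204 and 186 CPM in MOV mice, 37.8-fold higher. Plod2, which hydroxylates telopeptide lysines, and Serpinh1, the collagen chaperone, rose by log2 fold changes of 4.33 and 3.00. P4ha2 and Pcolce2 did not pass the test, at log2 fold changes of 0.17 and 0.31.

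Of 24 matrix glycoproteins and matricellular proteins, all tested, 23 rose and 0 fell (median log2 fold change 3.62). All 23 separated both groups, against 24.0% of all tested genes that were higher with groups that did not overlap. Postn, periostin, a matricellular protein of loaded and healing tissue (chromosome 3, 54268501 to 54298471), had 3.57, 6.23, 3.05, 6.99 and 12.9 CPM in sham mice and 1509.7, 951, 1557, 1744 and 1572 CPM in MOV mice, 225-fold higher (log2 fold change 7.81, SE 0.429, adjusted p = 2.64e-07). Here too MOV mouse 2 was the lowest of its group, yet far above sham mouse 5. Tnc, tenascin C, rose 95.8-fold from 1.63, 0.963, 2.095, 2.41 and 1.27 CPM to 123, 67.8, 198, 210.5 and 201 CPM. Thbs4, a thrombospondin of tendon and stretched muscle, went from 39.96 ± 3.97 to 596 ± 128 CPM (SD, n = 5 each). Fn1, fibronectin, Sparc and Eln, elastin, rose by log2 fold changes of 4.33, 3.74 and 4.10. Tnxb was the member that did not pass (0.36, adjusted p = 0.208).

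Among 16 proteoglycan and hyaluronan genes, all tested, 15 rose and 1 fell (median log2 fold change 2.20), and with total counts 15 rose and 0 fell. The fall was that of Has3, a hyaluronan synthase (log2 fold change -0.66, adjusted p = 0.0452), and it was also lost with RLE or upper quartile factors, with a minimum of 1 count and in 8 of 10 leave-one-out fits. Acan, aggrecan, the large proteoglycan of cartilage and compressed tendon, was at 0 CPM in 4 sham mice and at 0.172 CPM in sham mouse 4, and had 9.09, 7.03, 5.80, 4.62 and 6.41 CPM in MOV mice, at least 39.1-fold higher. Of the small leucine-rich proteoglycans, which bind collagen fibrils, some rose less and some more than that median. Fmod, fibromodulin, had 37.7, 29.3, 34.2, 44.3 and 30.99 CPM in sham and 114, 95.4, 98.1, 124 and 125 CPM in MOV mice (3.15-fold), and Dcn, decorin, rose 1.93-fold from 240.1 ± 34.5 to 462 ± 122 CPM. Biglycan (Bgn) and asporin (Aspn) rose more, by log2 fold changes of 3.81 and 4.09.

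Promoter sequences are shown for 3 genes that stand for these changes, the embryonic myosin, the steepest matrix gene and the largest gain in CPM among genes that passed the test, because load-responsive promoters of muscle are known to hold MCAT elements, the sites of TEAD factors. Each run is the stretch of the RefSeq promoter window that lies before the first annotated exon, 5′ to 3′ on the strand of the gene, placed on GRCm39 by exact match, and capitals mark any match to the 8 motifs searched. Myh3 is at chr11:66968876-66969125 on the plus strand, Tnn at chr1:159981151-159981395 on the minus strand and Col3a1 at chr1:45350448-45350697 on the plus strand.
Myh3: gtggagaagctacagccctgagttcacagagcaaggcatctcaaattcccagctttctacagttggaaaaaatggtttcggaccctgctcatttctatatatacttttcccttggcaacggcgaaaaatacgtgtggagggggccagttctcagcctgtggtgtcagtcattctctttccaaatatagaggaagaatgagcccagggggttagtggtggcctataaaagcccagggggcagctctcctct
Tnn: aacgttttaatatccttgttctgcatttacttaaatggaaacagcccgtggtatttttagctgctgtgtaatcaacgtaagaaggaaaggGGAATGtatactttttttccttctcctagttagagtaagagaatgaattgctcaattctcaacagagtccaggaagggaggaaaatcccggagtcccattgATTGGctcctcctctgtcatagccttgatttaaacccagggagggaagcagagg
Col3a1: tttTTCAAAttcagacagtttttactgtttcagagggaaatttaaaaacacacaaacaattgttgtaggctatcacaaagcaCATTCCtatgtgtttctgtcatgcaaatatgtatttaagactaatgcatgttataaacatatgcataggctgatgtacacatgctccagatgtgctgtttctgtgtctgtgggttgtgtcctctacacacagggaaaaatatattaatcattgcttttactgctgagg
The Myh3 stretch holds none of the 8 motifs. The Tnn stretch holds an MCAT match on the reverse strand at bases 91 to 96 and a CCAAT box, also reversed, at bases 192 to 196. The Col3a1 stretch holds the reverse of TTTGAA at bases 4 to 9 and an MCAT match at bases 83 to 88. Over RefSeq windows of 300 bases searched on both strands, CATTCC (MCAT) was present in 15.5% of 2510 windows of genes at 2-fold or more higher, in 16.9% of 431 windows of genes at 2-fold or more lower and in 12.5% of 13917 windows of all tested genes. TGANTCA (AP-1) was present in 7.49%, 5.80% and 5.28% of the same windows, and CAGCTG (E-box) in 18.6%, 20.6% and 15.9%. CCAAT was present in 34.9%, 40.1% and 37.4%, and TTTGAA, the cell cycle homology region, in 13.4%, 14.4% and 12.1%. The rarer TCAAGGTCA, the element of estrogen-related receptors, was present in 0.279%, 0.464% and 0.287%, the MEF2 site in 0.398%, 1.39% and 0.553%, and the CArG box in 1.67%, 0.696% and 1.32%. TGANTCA and the CArG box were more frequent in the windows of rising genes than of falling genes, and the other 6 motifs were less frequent. For the rarer motifs this rests on few windows. The CArG box, the MEF2 site and TCAAGGTCA were in 3, 6 and 2 windows of falling genes and in 42, 10 and 7 windows of rising genes. These shares are a description, windows of 1 gene can overlap, and a match is not a bound site.

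Proteases that cut matrix rose with it. Of 22 matrix metalloproteinases and TIMPs 17 were tested, 13 rose and 1 fell (median log2 fold change 3.14). When any 1 MOV mouse was left out 10 or 11 rose, and with a minimum of 50 counts 8 rose. Mmp14, a membrane-bound collagenase that also activates Mmp2, had 9.86, 9.004, 9.78, 11.9 and 12.3 CPM in sham mice and 129, 88.2, 149.9, 163 and 124 CPM in MOV mice, 12.4-fold higher. Their inhibitor Timp1 went from 0.0452, 0.283, 0.317, 0.802 and 0.232 CPM to 17.8, 11.1, 22.9, 30.1 and 27.2 CPM (66.3-fold, log2 fold change 6.05), so the lowest MOV mouse had more than 10 times the highest sham mouse. Timp4, an inhibitor found in resting muscle, had 13.97, 18.9, 18.03, 16.96 and 22.2 CPM in sham and 13.1, 13.2, 3.32, 5.27 and 7.71 CPM in MOV mice and fell (log2 fold change -1.08, adjusted p = 0.0199), a call that was lost with total counts and without MOV mouse 4. All 17 tested of 18 ADAMTS proteases rose (median log2 fold change 2.50). The number that rose was 13 or 14 when any 1 MOV mouse was left out, and 14 with a minimum of 50 counts. Ctsk, cathepsin K, a lysosomal collagenase, rose 17.4-fold from 2.49, 2.32, 2.86, 5.21 and 3.71 CPM to 55.4, 47.7, 57.7, 68.3 and 58.6 CPM, and 10 of 14 lysosomal genes rose with 0 falling.

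Growth factors of the IGF axis rose and the brake myostatin fell. Of 12 IGF axis genes 11 were tested, and 7 rose and 0 fell (median log2 fold change 1.09). Igf1, the growth factor that muscle makes under load, had 9.09, 11.2, 10.6, 12.1 and 15.1 CPM in sham mice and 84.03, 59.6, 93.9, 117 and 79.02 CPM in MOV mice, 7.47-fold higher (log2 fold change 2.90, SE 0.187, adjusted p = 1.91e-07). Igf2 rose 11.9-fold, from 11.8, 12.6, 8.38, 10.1 and 11.2 CPM to 148, 121, 125, 126 and 123 CPM. The receptor Igf1r and the substrates Irs1 and Irs2 did not pass the test, at log2 fold changes of 0.086, -0.16 and -0.029.

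Mstn, myostatin, which limits muscle size (chromosome 1, 53100799 to 53107240), had 80.6, 51.9, 68.2, 78.7 and 72.2 CPM in sham mice and 23.4, 16.8, 25.4, 22.04 and 24.3 CPM in MOV mice. All MOV mice were below all sham mice, 3.14-fold on average (log2 fold change -1.65, SE 0.129, adjusted p = 2.15e-07). Over its axis of 13 genes, all tested, 5 rose and 5 fell (38.5% each, against 30.7% higher and 29.8% lower of all genes), and with total counts 7 rose and 4 fell. With a minimum of 50 counts 3 rose. The myostatin binder Fst and the activin subunit Inhba both rose by 1.56 on the log2 scale, and the receptor Acvr2b fell by 1.27. Fstl1, a secreted relative of follistatin, had the largest rise, from 43.8 ± 6.94 to 608 ± 169 CPM (SD, n = 5 each).

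Of 16 atrophy genes 15 were tested, 6 fell and 2 rose (median log2 fold change -0.23). These are 40.0% lower, against 29.8% of all genes, and 13.3% higher, against 30.7%. With total counts 5 fell and 5 rose, and without MOV mouse 5 4 rose. Fbxo32, atrogin-1, a ubiquitin ligase of wasting muscle, had 590.3, 499, 577, 598 and 492 CPM in sham and 294, 352, 220.4, 229.5 and 155 CPM in MOV mice (2.204-fold lower, adjusted p = 0.000203). Trim63, MuRF1, its companion, fell by 0.36 on the log2 scale with TMM factors and was at 0.021 with total counts. Smox, spermine oxidase, fell 2.82-fold from 103.3 ± 21.8 to 36.6 ± 3.34 CPM. Ddit4, which encodes the mTORC1 inhibitor REDD1, went the other way, from 6.196, 7.93, 5.97, 4.53 and 4.92 CPM to 16.3, 15.96, 11.6, 12.7 and 12.2 CPM (2.32-fold higher).

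Polyamine genes moved in both directions. Amd1, S-adenosylmethionine decarboxylase, which supplies aminopropyl groups for spermidine and spermine, had 1081, 421, 739, 906 and 997 CPM in sham mice and 191, 143, 184, 169 and 140.3 CPM in MOV mice, 5.01-fold lower (log2 fold change -2.33, SE 0.231, adjusted p = 7.88e-06). In this gene too sham mouse 2 was the lowest of its group. Sat1, which acetylates polyamines for export, and Srm, spermidine synthase, rose by log2 fold changes of 1.32 and 1.25. The amino acid transporters Slc7a5 and Slc3a2, which pair to import leucine, rose by 0.95 and 0.39, and in the whole list of 10 genes, all tested, 6 rose and 2 fell.

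Most satellite cell and fusion genes rose. Of 12 listed genes 11 were tested, 7 rose and 1 fell (median log2 fold change 1.10). Pax7, the factor of resting satellite cells, had 1.45, 0.906, 2.603, 1.37 and 2.84 CPM in sham and 3.79, 3.08, 4.54, 3.35 and 4.77 CPM in MOV mice (log2 fold change 1.10, adjusted p = 0.00293). Myog, myogenin, which drives differentiation, rose 11.6-fold from 1.81, 1.93, 1.21, 1.49 and 2.09 CPM to 18.6, 16.3, 18.4, 25.5 and 20.4 CPM. Mymk, myomaker, the membrane protein of myoblast fusion, was at most 0.452 CPM in sham mice, at 0 in sham mice 3 and 4, and at 10.97, 7.39, 8.14, 11.3 and 10.1 CPM in MOV mice. Myod1 itself had 19.4 ± 3.29 and 20.7 ± 3.85 CPM (SD, n = 5 each; log2 fold change 0.098, adjusted p = 0.566), and with total counts it passed the test (0.47, adjusted p = 0.00694). The gene that fell, Mef2c, a factor of mature fibres, had a log2 fold change of -0.44, and this call was lost with total counts.

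Division genes rose from very low levels. Of 31 cell cycle and replication genes 30 were tested, 23 rose and 3 fell (median log2 fold change 2.51), and 13 or 14 rose when any 1 MOV mouse was left out, since fewer then reached the count filter. With a minimum of 50 counts 9 rose. Mki67, present in dividing cells, had 0.271, 0.3398, 0.127, 0.687 and 0.463 CPM in sham mice and 9.25, 4.11, 11.2, 9.71 and 8.79 CPM in MOV mice (22.5-fold, log2 fold change 4.49, adjusted p = 1.24e-07). Top2a and Cdk1 rose by log2 fold changes of 5.03 and 4.91. Aurkb, a mitotic kinase, was at 0 CPM in 4 sham mice and at 1.32, 0.667, 1.45, 1.61 and 1.55 CPM in MOV mice, at least 7.83-fold higher. Aurka, Rrm1 and Mcm2 fell, by 1.16, 0.82 and 0.46 on the log2 scale, although each is known for a role in division or replication, and the fall of Mcm2 was lost with total counts. All 3 were well above Mki67 in counts already in sham muscle, at 9.15 ± 1.01, 49.99 ± 3.88 and 12.8 ± 2.17 CPM.

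Markers used for senescent cells rose in part. Cdkn1a, which encodes the cyclin-dependent kinase inhibitor p21 (chromosome 17, 29309936 to 29319701), had 17.05, 16.5, 14.99, 13.98 and 21.96 CPM in sham mice and 59.3, 53.7, 50.9, 67.6 and 49.04 CPM in MOV mice, 3.32-fold higher (log2 fold change 1.73, SE 0.121, adjusted p = 5.01e-08). Cdkn2a, which encodes p16, failed the count filter with 0, 1, 0, 1 and 0 counts in sham mice and 30, 8, 27, 56 and 24 counts in MOV mice. It was not tested with edgeR, and DESeq2, run without the filter, gave it a log2 fold change of 5.80 (SE 1.04, adjusted p = 1.25e-07). Glb1, lysosomal beta-galactosidase, rose from 1.36, 1.53, 1.33, 1.26 and 1.16 CPM to 8.296, 6.01, 7.53, 9.36 and 6.198 CPM (5.61-fold). Of the 11 inhibitor and senescence genes 10 were tested, 6 rose and 0 fell. Of 35 genes of the senescence-associated secretory phenotype (SASP) and inflammation 24 were tested, 21 rose and 1 fell (median log2 fold change 2.79). With a minimum of 50 counts 14 rose and 1 fell. Il6, Il1a, Il1b, Tnf, Cxcl1, Cxcl2, Ccl3, Hgf, Lif and Gdf15 did not reach the count filter. DESeq2, which was run without that filter, called 8 of these 10 higher and gave no adjusted p for Il1a and Il6. Over all genes it called 5239 of 19989 higher. For these 8 low genes the SE of its log2 fold change reached 1.45 (Cxcl2) and its adjusted p 0.0356 (Gdf15). The SASP members that rose most included Timp1, Ccl5, Ccl8 and Mmp3, which are also made by cells that are not senescent. Vegfa, the main angiogenic factor, fell from 302 ± 31.3 to 224 ± 10.3 CPM (log2 fold change -0.43), and with total counts it did not pass the test.

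Genes of energy metabolism fell together by modest factors. All 13 protein-coding transcripts of the mitochondrial genome fell, also with total counts (median log2 fold change -0.98), and their share of all counts went from 15.3% ± 0.538 in sham to 9.99% ± 0.681 in MOV mice (SD, n = 5 each; adjusted p = 0.00992 over 5 shares in an exact permutation test). The transcript mt-Co1, for a core subunit of cytochrome oxidase, had 57887, 56386, 52280.1, 54570.5 and 54281 CPM in sham and 32623, 31836, 30084, 25517 and 28281 CPM in MOV mice. Of 37 nuclear genes of complex I, all tested, 36 fell and 0 rose (median log2 fold change -0.50), but with total counts 14 fell and 3 rose. Of 43 genes of complexes III, IV and V 40 were tested, 1 of them an annotated pseudogene, and 35 fell and 2 rose (median -0.43), while with total counts 10 fell and 3 rose. The 2 that rose were Cox6a1 and Cox8a, at log2 fold changes of 0.87 and 0.65.

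All 19 enzymes of the TCA cycle list were tested and 18 fell (median log2 fold change -0.67), and with total counts 14 fell. Cs, citrate synthase, had 934, 999.7, 873, 827 and 833 CPM in sham mice and 603, 598, 521, 489 and 589 CPM in MOV mice (1.596-fold lower). For fatty acid uptake and oxidation 17 of 18 genes fell (median -0.62, and 10 with total counts), and Acadm, the medium-chain dehydrogenase, fell 2.06-fold. For mitochondrial ribosomal proteins the direction depended on the scaling, since of 79 tested genes of 82 listed 52 fell and 0 rose with TMM factors, while 5 fell and 24 rose with total counts. Ppargc1a, the coactivator PGC-1 alpha that drives mitochondrial biogenesis, had 42.4, 44.8, 39.9, 42.6 and 59.7 CPM in sham and 20.3, 24.4, 18.9, 36.6 and 20.2 CPM in MOV mice (log2 fold change -0.93, adjusted p = 0.00109), and Prkaa2, a catalytic subunit of AMP kinase, fell 2.17-fold.

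Genes of glycolysis fell, except for isoforms of non-muscle cells. Of 24 genes of glycolysis and glycogen, all tested, 20 fell and 3 rose (median log2 fold change -0.62), and with total counts 17 fell and 3 rose. Pygm, muscle glycogen phosphorylase, went from 7537, 6808, 7264, 7324 and 6989 CPM to 3629, 3944, 3362, 3316 and 3497 CPM (2.02-fold lower), and Fbp2, muscle fructose bisphosphatase, fell 3.26-fold. The 3 that rose, Hk1, Pgam1 and Eno1, are the forms that most non-muscle cells use. Hk1 had 4.12, 3.79, 6.16, 6.36 and 6.199 CPM in sham and 13.2, 14.01, 19.4, 22.6 and 17.8 CPM in MOV mice (log2 fold change 1.71). Their muscle counterparts Hk2, Pgam2 and Eno3 fell by 0.68, 0.59 and 0.61 on the log2 scale. Among energy buffers the same was seen for creatine kinase, with Ckb, the brain form, up 4.85-fold from 5.67 ± 1.33 CPM and Ckm, the muscle form, down 1.58-fold from 19666 ± 439.8 CPM. Whether the rising forms were made in fibres or in other cells was not tested.

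Excitation-contraction coupling fell with 1 exception. Of 17 genes, all tested, 14 fell and 1 rose (median log2 fold change -0.63), and with total counts 10 fell and 3 rose. Clcn1, the chloride channel, and Scn4a, the sodium channel of the fibre membrane, fell by 1.23 and 1.11, and Ryr1, the calcium release channel, by 0.62 on the log2 scale. Sln, sarcolipin, a peptide that uncouples the calcium pump, had 1.63, 1.25, 2.35, 1.89 and 1.27 CPM in sham mice and 39.5, 61.96, 24.8, 42.2 and 18.97 CPM in MOV mice, 22.4-fold higher, while Mrln, the related peptide myoregulin, fell 2.46-fold.

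Genes that denervated muscle is known to raise were higher too. Of 10 such genes, all tested, 9 rose and 1 fell (median log2 fold change 3.15). Beside Sln, Myog and Chrng these included the transcription factor Runx1, at a log2 fold change of 3.53. Chrna1, the alpha subunit of the acetylcholine receptor, had 16.4, 12.97, 13.1, 12.7 and 11.5 CPM in sham and 41.4, 30.5, 28.6, 26.8 and 33.7 CPM in MOV mice (2.41-fold). Chrne, the adult epsilon subunit, did not pass the test (log2 fold change 0.051), and the organizers of the synapse Musk and Rapsn fell by 0.87 and 0.58. The exception of the denervation list was Hdac4, at -0.72.

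Of 14 clock genes, all tested, 10 fell and 2 rose (median log2 fold change -0.76), and with total counts 7 fell and 3 rose. The outputs and repressors Ciart, Hlf and Dbp fell by 2.33, 2.14 and 2.08 on the log2 scale, while Npas2, a partner of Bmal1, had 1.31, 0.6795, 1.02, 0.6301 and 2.03 CPM in sham and 4.67, 4.93, 6.74, 8.67 and 5.49 CPM in MOV mice (5.34-fold higher). Arntl, which encodes Bmal1, rose by a log2 fold change of 0.49. The hour of collection is not given in the sources used here.

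Protein synthesis and breakdown genes moved little, and their direction rested on the scaling. Of 88 cytosolic ribosomal protein genes 83 were tested, 23 rose and 6 fell (median log2 fold change 0.11), while with total counts 78 rose and 1 fell. With TMM factors that is 27.7% higher, against 30.7% of all genes, and 7.23% lower, against 29.8%. Much of this family has near-identical copies that estimated counts can split. A ratio within the mouse does not have that limit of scaling: Rpl3 against Rpl3l, the paralog that adult muscle uses in its place, rose 5.92-fold (two-sided exact permutation test, adjusted p = 0.00794). Rpl3 had 40.2, 42.6, 43.6, 43.1 and 41.1 CPM in sham and 138, 119, 134, 163 and 155 CPM in MOV mice, and Rpl3l had 483, 561, 512, 469 and 462 CPM and 298, 318, 261, 249.7 and 282 CPM. Of 30 ribosome biogenesis genes, all tested, 12 fell (40.0%) and 5 rose (16.7%), with a median of -0.16, but with total counts 1 fell and 15 rose. Myc, which drives them, was spread over MOV mice at 3.87, 3.34, 4.63, 11.3 and 5.82 CPM (log2 fold change 0.95, adjusted p = 0.0153). Of 38 proteasome genes 37 were tested, and 6 rose and 6 fell with TMM factors (16.2% each). Between 2 and 7 rose and between 1 and 8 fell when 1 mouse was left out, and 36 rose and 0 fell with total counts. Chaperones of the endoplasmic reticulum were less dependent on it, with 12 of 16 risen and 0 fallen, and 14 risen with total counts. Pdia3, a disulphide isomerase, rose 3.095-fold.

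Markers of macrophages and of matrix-making cells rose in parallel with these groups. In a whole muscle, more cells of a type and more RNA per cell cannot be told apart. Of 18 macrophage markers, all tested, 17 rose and 0 fell (median log2 fold change 2.68), and their summed level went from between 57.8 and 141 CPM in sham mice to between 270 and 776 CPM in MOV mice. Adgre1, which encodes F4/80, had 0.543, 1.13, 1.78, 3.09 and 2.38 CPM in sham and 15.8, 10.6, 20.6, 28.3 and 16.2 CPM in MOV mice (10.4-fold). Trem2, a receptor of lipid-handling macrophages, rose 29.5-fold to 7.66, 4.11, 7.95, 8.36 and 8.92 CPM, lowest in MOV mouse 2. Cd163, a marker of resident macrophages, was the 1 that did not pass (log2 fold change 0.28).

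All 5 antigen presentation genes rose (median log2 fold change 2.28), H2-Aa from 12.9, 11.04, 12.4, 30.6 and 26.8 CPM to 78.5, 45.2, 101, 165 and 73.1 CPM. Of 12 complement genes, all tested, 11 rose (median 2.46), with C1qa at 6.01, 9.74, 7.43, 16.7 and 11.7 CPM in sham and 59.4, 38.2, 77.1, 108 and 57.9 CPM in MOV mice. Of 28 chemokine genes 20 were tested, 14 rose and 2 fell. With total counts 14 rose and 0 fell, with a minimum of 50 counts 7 rose and 1 fell, and DESeq2 called 20 higher and 2 lower. Over all genes DESeq2 called 5239 of 19989 higher and 4277 lower. The falls were those of Ccl25 (log2 fold change -0.62) and Ccl11 (-0.61), and the call of Ccl11 was lost in 7 of 10 leave-one-out fits. Of 14 interferon-stimulated genes, all tested, 10 rose and 0 fell (6 rose with a minimum of 50 counts). T cell, B cell and neutrophil markers were low, with summed levels of at most 4.92, 1.44 and 6.58 CPM in any mouse. Of 9 T cell markers 3 were tested, of which Cd8a and Lck rose and Cd3e, at 1.58, 1.59, 1.27, 2.005 and 2.201 CPM in sham and 2.03, 0.821, 0.842, 2.13 and 1.05 CPM in MOV mice, did not pass (log2 fold change -0.32, and 0.070 with total counts). When any 1 MOV mouse was left out 0 T cell markers rose, whereas DESeq2, run without the count filter, called 6 higher. Of 7 neutrophil markers 3 were tested and 2 rose (median log2 fold change 1.78). Between 1 and 3 rose when 1 mouse was left out, and 0 with a minimum of 50 counts. The tested markers summed to between 0.317 and 1.97 CPM in sham mice and between 2.85 and 6.58 CPM in MOV mice. S100a8 did not pass, except without MOV mouse 5, and had at most 1.797 CPM in any mouse. Of 4 B cell markers 1 was tested and it did not pass.

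Markers of fibro-adipogenic progenitors, the fibroblasts of muscle, rose in 6 of 7 genes (median log2 fold change 1.36), led by Pi16 (21.8 ± 4.83 to 119 ± 48.8 CPM, SD, n = 5 each). All 6 tenocyte markers rose (median 2.698), and Tnmd, tenomodulin, went from 5.47, 2.04, 4.64, 3.895 and 3.07 CPM to 48.4, 40.3, 63.6, 66.5 and 55.4 CPM (14.2-fold). Endothelial markers rose less, in 10 of 13 genes (median 0.69), with Kdr not passing (0.14, adjusted p = 0.2303) except with total counts. Of 9 pericyte and smooth muscle markers 5 rose and Abcc9 fell (log2 fold change -0.80). Of 9 Schwann cell markers 8 were tested and 4 rose (2 without MOV mouse 1, 2, 3 or 4). Of 8 adipocyte markers 7 were tested, 4 fell and 1, Fabp4, rose. The number that fell was 2 with total counts and without MOV mouse 3, sham mouse 2 or sham mouse 4, and 0 with a minimum of 50 counts. The groups did not overlap for 1 of the 4, Plin1, which coats fat droplets and had 1.36, 5.15, 1.84, 4.81 and 3.42 CPM in sham and 0.638, 0.873, 0.421, 1.22 and 0.796 CPM in MOV mice. The 5 red blood cell markers had log2 fold changes between -0.57 and -0.26 and did not pass the test. Fibre markers were mixed, with 4 of 8 lower, Ckm among them, and Actn2 and Des higher. The part of these cell types in the rises of matrix, protease and lysosomal genes was not tested.

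**Figure D3:**
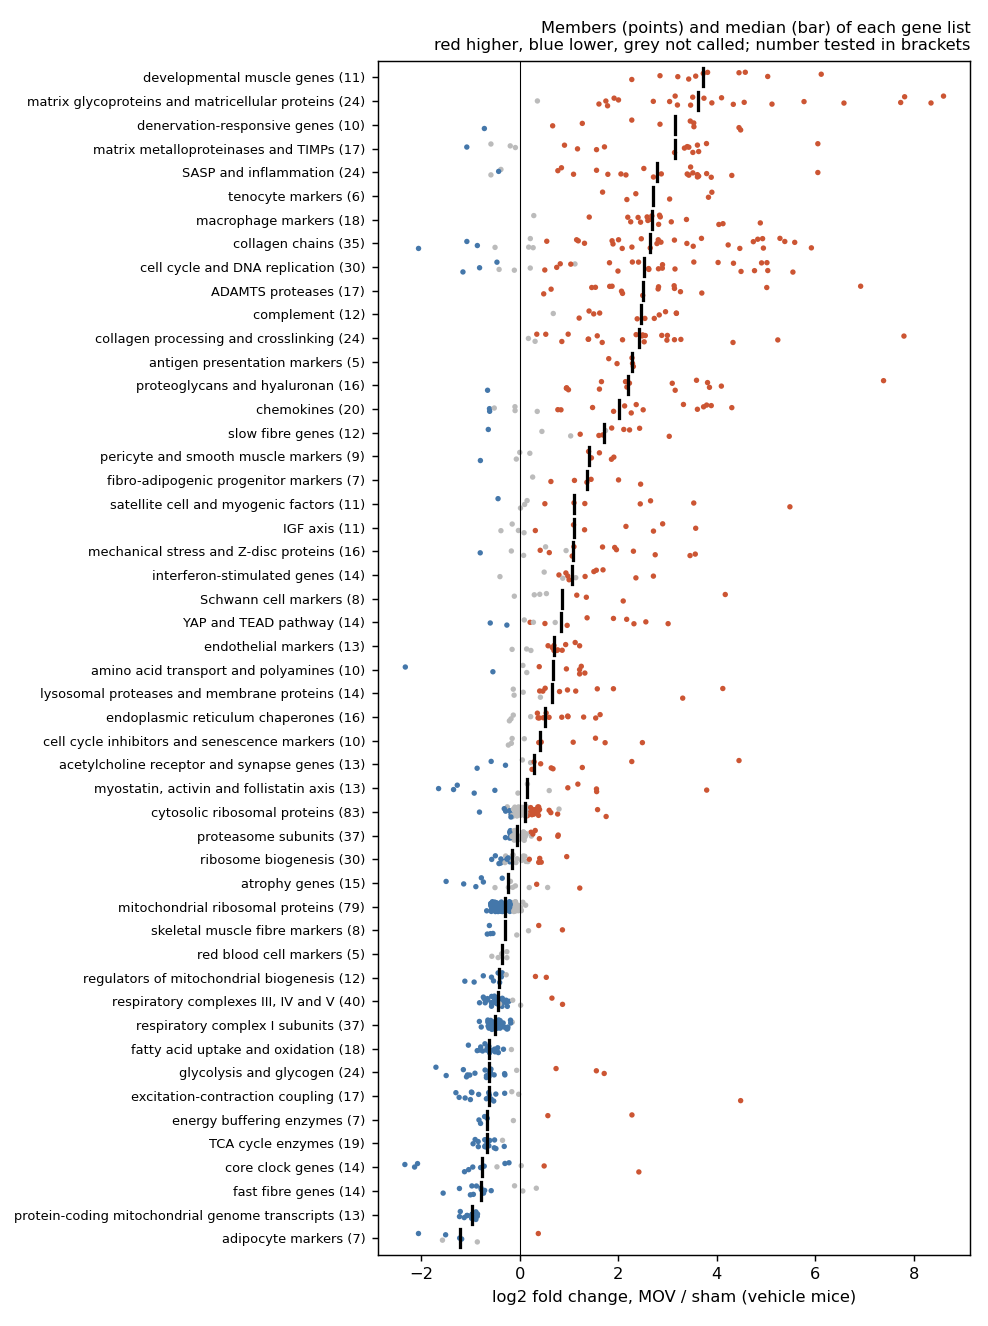
Log2 fold change (MOV over sham in vehicle mice, horizontal axis) of the tested members of each gene list with at least 5 of them (vertical axis, number tested in brackets), coloured where the adjusted p is under 0.05, with a black bar at the median. Lists of the matrix, developmental genes and macrophages lie to the right, with medians from 2.20 for proteoglycans to 3.73 for developmental muscle genes, and energy lists lie to the left of 0.

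**Figure D4:**
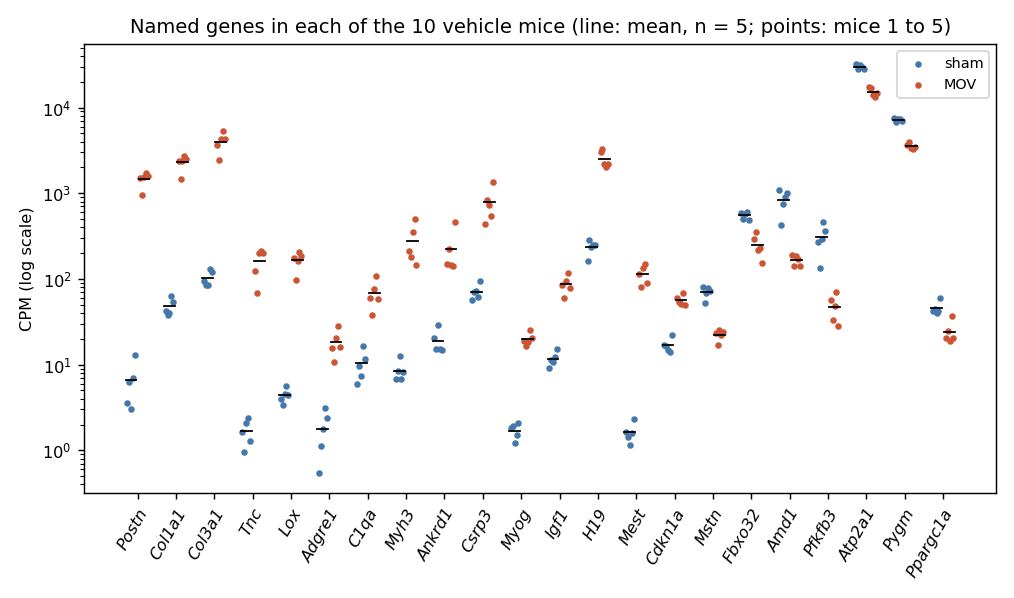
CPM on a log scale (vertical axis) of 22 named genes in each of the 5 sham and 5 MOV mice, with a line at each mean. The genes were picked by hand, and named genes whose groups overlap, such as Myh7 and Cryab, are not shown. For every gene shown the groups do not overlap, as for 46.3% of all tested genes. They run from Postn (3.05 to 12.9 CPM in sham mice, 951 to 1744 CPM in MOV mice) to Ppargc1a (39.9 to 59.7 against 18.9 to 36.6 CPM).

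The same surgery in D+Q mice, which share no animal with the vehicle mice, gave a response of the same kind. There 9743 of 14913 genes (65.3%) differed between MOV and sham. Of the genes at 2-fold or more higher in vehicle mice 2542 were tested in D+Q mice, and 2463 of them (96.9%) were higher and 0 lower there, against 34.4% of all genes. Of those at 2-fold or more lower 492 were tested, and 431 (87.6%) were lower and 0 higher, against 30.9% of all genes. Median log2 fold changes of the higher genes were 1.83 in vehicle and 1.85 in D+Q mice, and those of the lower genes -1.25 and -1.07. Since the genes were chosen on the vehicle mice, their vehicle medians are not an independent measure.

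A test of the difference between the responses, the interaction over all 20 mice, called 2 of 15700 genes (0.0127%), and 897 (5.71%) had an unadjusted p under 0.05. Sgk1, a kinase induced by glucocorticoids and load, had 163, 137, 158, 170.4 and 101 CPM in vehicle sham and 61.5, 59.1, 51.7, 57.2 and 79.9 CPM in vehicle MOV mice, a fall by 1.24 on the log2 scale, whereas its log2 fold change in D+Q mice was 0.044 (interaction 1.25, SE 0.179, adjusted p = 0.00676). Tcf15, a transcription factor of capillary endothelium, rose in vehicle mice from 6.78, 5.55, 7.81, 6.36 and 6.02 CPM to 8.49, 8.73, 9.73, 9.63 and 8.88 CPM (log2 fold change 0.48), and its log2 fold change in D+Q mice was -0.65 (interaction -1.16, SE 0.163, adjusted p = 0.00328).

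**Figure D5:**
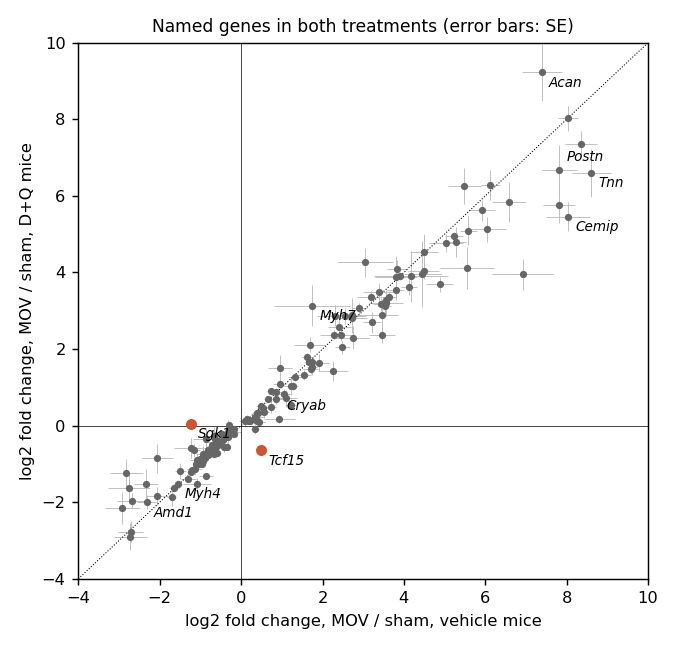
Log2 fold change of MOV over sham for the named genes in vehicle mice (horizontal axis) and in D+Q mice (vertical axis), with standard errors and a dotted line of equality (5 mice in each group). Most genes lie near the line, and Tcf15 (0.48 against -0.65) and Sgk1 (-1.24 against 0.044), in colour, are the 2 called in the interaction.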

How the data were processed

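Plantaris RNA of the 10 vehicle mice, and of 10 D+Q mice for 1 comparison, was sequenced by the authors. They aligned reads to GRCm39 with STAR 2.7.8a and estimated counts per gene with Partek's expectation-maximization quantifier. The deposited estimated counts are not normalized, every row sums to at least 10 over 20 mice, and 29.8% of the values are not whole. The 10 largest values carry 3 significant digits. Counts were rounded to whole numbers, and 20 rows that repeat a gene name were kept apart. No batch is given in the labels, which give the age, treatment and surgery of the mice, and each sample was taken as a separate animal.

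MOV and sham mice were compared with edgeR 4.0.16 (R 4.3.3; quasi-likelihood test, robust, TMM, Benjamini-Hochberg, threshold 0.05) over genes that reached 10 counts in 5 or more mice. Adjusted p-values of genes are from this test. Shares and ratios were compared by two-sided exact permutation over the 252 divisions of 10 mice. Alternatives were DESeq2 1.42.0, limma-voom with quality weights (limma 3.58.1), RLE, upper quartile and no factors, other count minimums, all 20 mice in one fit, a replicate block, and leaving out 1 mouse at a time. The edgeR fit was also run on simulated counts in which few genes changed, in both directions. Most genes differed in the real data, so the simulation does not test the scaling between groups. Positions are from GENCODE on GRCm39 (97.6% of tested genes matched), promoter windows from RefSeq (GRCm38.p6), found for 10870 tested genes.

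Named genes were a fixed list of muscle, matrix, immune and senescence genes, the 6 largest rises and 6 largest falls whose groups did not overlap at 1 CPM or more, the 5 largest gains and losses in CPM, interaction calls, and in each gene list the largest rise, the largest fall and members against its direction. Other genes are named as examples of their list, and some genes of the lists are not reported here. The genes, lists and tests were chosen with earlier results of these data known, so no list is tested as a set.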

Additional observations from a re-analysis of the deposited data

Results flagged for a closer look

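Dixon's test was run on 350 groups of 5 mice, among them the named genes, myosin shares and isoform ratios in sham or MOV mice. In 24 of these groups 1 mouse lay far from the other 4, and chance alone flags about 1 in 20 groups. Sham mouse 3 was high for several slow fibre genes and for 1 developmental gene, Myh3. Its Myh7 was 352 CPM (the other 4 had 9.23 to 79.0), its Tnni1 34.9 CPM, its Atp2a2 236 CPM and its Myh3 12.6 CPM. The Myh7 share of its myosin was 0.459%, and its log2 ratio of Atp2a2 to Atp2a1 was -7.04. This mouse also had Aurkb at 0.127 CPM, where the other 4 were at 0.

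MOV mouse 2 was low for Col1a1 (1480.2 CPM), Col12a1 (102 CPM), Cemip (2.26 CPM) and Trem2 (4.11 CPM). MOV mouse 5 was high for Ankrd1 (459 CPM) and low for Rrm1 (25.3 CPM), MOV mouse 4 was low for Tnni2 (4069.9 CPM) and high for Sat1 (46.6 CPM), MOV mouse 1 was high for Igf2 (148 CPM), and MOV mouse 3 was low for Fbl (12.3 CPM). Among sham mice, mouse 2 was low for Npm1 (75.4 CPM), mouse 4 was high for Acan (0.172 CPM) and Adamts19 (0.0573 CPM), and mouse 5 was high for Ppargc1a (59.7 CPM), Fabp4 (108 CPM), Cemip (0.0579 CPM) and P4ha3 (0.232 CPM). For Acan, Adamts19 and Cemip the other 4 sham mice were at 0.

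The response to MOV differed between vehicle and D+Q mice in 2 genes by the interaction test, Tcf15 (-1.16 on the log2 scale) and Sgk1 (1.25).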

How the results depend on the processing

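With a minimum of 50 counts 1966 genes differed at 2-fold or more (1672 higher, 294 lower). With total counts only 7683 genes were higher and 1453 lower, and 160 were lower at 2-fold or more. The log2 fold changes that turned positive with total counts were those of Trim63 (0.021), Cd3e (0.070), Lats1 (0.12), Rpl23a (0.17), Rpl36 (0.20), Rpl4 (0.060), Rpl5 (0.089), Rps25 (0.20), Psmd9 (0.087) and Lrp4 (0.086). Leaving out 1 mouse at a time gave between 7929 and 8504 calls, between 2550 and 3103 at 2-fold or more, and 2 or 3 in the interaction. The difference in the share of Myh7 ranged from 0.517 to 0.888 percentage points, and its adjusted exact permutation p rose to between 0.0556 and 0.0635 when sham mouse 1, 2, 4 or 5 was left out. The cause of these changes was not tested. Under any setting 26 of the 159 named genes lost or gained a call.

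Same-numbered sham and MOV mice had correlations of deviations of 0.0129, 0.0823, -0.0200, 0.217 and -0.0579. Differently numbered mice were not compared, so whether the replicate numbers pair the mice was not tested. With the number as a block 4419 genes were higher and 4275 lower, and 1 was called in the interaction. For shares and ratios the pairing leaves a smallest exact sign-flip p of 0.0625, which all 12 had. The paired differences were -30.8, 18.7, 10.3, 0.728, 0.686 and 0.326 percentage points for Myh4, Myh1, Myh2, Myh7, Myh3 and Myh8, and on the log2 scale 4.52 for Tnni1/Tnni2, 3.54 for Tnnt1/Tnnt3, 3.59 for Tnnc1/Tnnc2, 2.77 for Atp2a2/Atp2a1, 2.46 for Casq2/Casq1 and 2.57 for Rpl3/Rpl3l. Depth limits low genes, and genes under 10 counts in most mice, Cdkn2a among them, were not tested with edgeR.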

Other observations

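The gene groups below were picked after the values had been seen, so they carry no test of the group and are given as counts beside the 30.7% of all tested genes that rose. Imprinted genes, which are active from 1 parental copy and mostly act in fetal growth, stood out as a set of large rises. Of 22 listed, all tested, 17 rose and 4 fell in MOV muscle (median log2 fold change 1.75). Dlk1, a Delta-like ligand that marks immature fibres and fat precursors, had 0.177 ± 0.09199 CPM in sham mice and 12.8 ± 5.45 CPM in MOV mice (SD, n = 5 each; log2 fold change 6.13, adjusted p = 2.05e-07). Its neighbours on the same imprinted cluster, the noncoding RNAs Meg3, Rian and Mirg, rose by log2 fold changes of 4.16, 4.48 and 4.77, and Meg3 went from 11.5 ± 1.17 to 206 ± 60.2 CPM. Plagl1, a zinc finger factor, Peg3 and Grb10 rose by 4.74, 2.08 and 1.89. Nnat, Snrpn and Peg13 fell by 1.59, 1.05 and 1.01 on the log2 scale.

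Integrins, the receptors through which cells hold matrix, rose in 20 of 24 tested subunits and 1 fell (median log2 fold change 1.18). The leukocyte subunits Itgax, Itgam and Itgb2 rose by 2.96, 2.84 and 2.77, the collagen receptor Itga10 by 2.82 and the fibronectin receptor Itga5 by 2.64, while Itgb1, shared by many cells, rose by 0.90. Of 16 ligands of the TGF-beta family 12 were tested, and 5 rose and 1 fell, with Gdf6 at 3.35, Tgfb1 at 2.05 and Tgfb2 at -0.31 in log2 fold change. Of 10 tested Wnt ligands 4 rose and 2 fell. Wnt2 rose by a log2 fold change of 4.79, and Wnt4 and Wnt5a fell by 1.48 and 0.46.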
